A study of Mus musculus with 14 samples.

Results

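Cytosolic ribosomal protein genes encode the proteins of the ribosome that translates nuclear-encoded messages. They were chosen by name: the small-subunit Rps and large-subunit Rpl genes with at most a one-letter ending, plus Rplp0, Rplp1, Rplp2 and Rpsa. Of 81 such names in the deposited table, the 78 with a mean of at least 1 TPM (a length-scaled read count that sums to the same total in every library) over all libraries were kept, out of 46855 gene symbols, 14574 of which reached that mean. There were 32 small-subunit and 46 large-subunit members. Among the names left out were Rps3a1, Fau and Gnb2l1 (Rack1), and every pseudogene name that holds -ps. The 3 that fell below the mean were Rpl3l, Rpl10l and Rpl39l, paralogs known mainly from muscle and testis, with 21, 0 and 17 reads over all 14 libraries.

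RNA came from whole ileum, the last stretch of the small intestine, of wild-type C57BL/6N mice. Untreated mice gave 4 libraries at postnatal day 24 (P24) and 4 at day 14 (P14), and there were 3 from mice injected with 0.1 µg per g body weight of the interleukin-22 preparation named rmIl22 and 3 from mice injected with phosphate-buffered saline alone (PBS). Injections were given at days 14 and 15 and tissue was taken at day 16, although the labels' age entry reads day 24 for mice given rmIl22 and day 14 for those given PBS. The series asks how the ileum changes around weaning and what interleukin-22, an epithelial cytokine, does before it. The labels number the replicates without saying that each is a separate mouse, so every p-value here reflects only the spread among these libraries, which may be technical.

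The members are translated from some of the most abundant messenger RNAs of a cell, since every ribosome needs 1 copy of nearly all of them. Most of these messages begin with a cytosine and a run of pyrimidines, the terminal oligopyrimidine (TOP) start. Through it, the kinase mTORC1 and the RNA-binding protein LARP1 hold back or release their translation, so a transcript level is not a rate of protein synthesis. In the intestine, ribosome production is high in the dividing crypt cells. In whole tissue, fewer cells of a type and less RNA per cell cannot be told apart.

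The sequence at the annotated start shows which members carry the TOP run in RefSeq (GRCm38.p6), where 57 of the 78 had an entry. The 30 bases from 10 before the start to 20 after it are given for 4 members with a run, and for 3 members that stood at the ends of the age comparison. Capitals mark the first transcribed base and any pyrimidine run that begins there with a C.
Rps6 (chr4:86857348-86857377, minus strand): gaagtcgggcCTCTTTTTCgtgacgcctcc
Rps10 (chr17:27635225-27635254, minus strand): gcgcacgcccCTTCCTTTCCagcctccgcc
Rpl15 (chr14:18270967-18270996, minus strand): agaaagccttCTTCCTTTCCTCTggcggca
Rps27 (chr3:90213629-90213658, minus strand): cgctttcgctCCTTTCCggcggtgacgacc
Rps27l (chr9:66946076-66946105, plus strand): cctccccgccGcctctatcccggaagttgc
Rps26 (chr10:128626487-128626516, minus strand): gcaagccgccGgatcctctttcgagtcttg
Rpl23 (chr11:97782420-97782449, minus strand): gtccggtcacGtggctgagtgggcggggcc

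A C followed by at least 4 pyrimidines stood at the annotated start of 13 of the 57 members (22.8%), against 287 of 10022 other genes with a mean of 1 TPM or more (2.86%) and 2.97% of all other genes. Rps27l and Rps26 had no match. A short pyrimidine stretch begins at the next base in Rps27l, and a stretch as long as the Rps6 run begins a few bases on in Rps26. An annotated start need not be the one the ileum uses. The motif CCGGAAG, a core bound by ETS factors, was found on either strand within the 300 bases from 250 before to 50 after the start in 24 of 57 members (42.1%). It was found in 18.9% of the other genes with a mean of 1 TPM or more and in 9.86% of all other genes. GCCATNTTG, a form of the YY1 motif that neither contains the first nor lies within it, was found in 3 members (5.26%), against 4.78% and 2.9%. Rps27l and Rps26 held CCGGAAG, and Rpl23 did not. The 13 members with a run had a median log2 fold change of -0.26 between P24 and P14 and a range of -0.50 to -0.07. The 44 without had -0.32 and a range of -0.68 to 0.68, and 4 of the 13 and 20 of the 44 fell, while 1 of the 44 rose. Of all genes tested 43.7% fell and 14.6% rose. On median-scaled TPM 2 of all 78 members were lower, where 28.3% of all genes were.

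Each library held 35.6 to 46.5 M gene reads, as recovered from the TPM. Rps12, a protein of the small-subunit head, was the most abundant member on the per-length TPM scale, with a mean of 4130 TPM over all libraries. Other abundant members were the stalk protein Rplp1 (2566 TPM), Rps24 (2023 TPM) and Rpl17 (1831 TPM). At the low end were Rpl24 (3.17 TPM), Rps4l (112 TPM), Rps15a (133 TPM), Rpl22 (152 TPM) and Rpl35a (158 TPM). The median member stood at 595 TPM, and 55 of 78 lay between 100 and 1000 TPM. Rpl24 is a core protein of the large subunit, yet it had only 32 to 104 reads per library. In GENCODE M21 (GRCm38), 47.0% of its exon bases are shared on the same strand with Gm28037, and how reads on shared bases were counted is not given, so its level is uncertain. The same limit applies to the next largest shares, 35.4% in Rpl13a (with Gm45713, Mir5121 and Snord33) and 20.6% in Rps10 (with RPS10-NUDT3). Reads shared with processed copies are uncertain for all members, and the 271 ribosomal protein pseudogene names that hold -ps summed to 304.5 to 508.6 TPM per library.

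The 78 members together took 5.36%, 4.30%, 5.20% and 5.62% of all TPM in P24 libraries 1, 2, 6 and 8, against 7.68%, 6.41%, 5.70% and 5.51% in P14 libraries 1, 2, 4 and 5. P24 library 8 lay above P14 library 5, so the groups overlapped. The means were 5.12 ± 0.57% at P24 and 6.32 ± 0.98% at P14 (SD, n = 4 each), and an exact permutation test, two-sided, gave p = 0.0571, where 0.0286 is the smallest p that 70 regroupings allow. The members took 7.12%, 5.59% and 7.47% in rmIl22 libraries 1, 2 and 3, against 6.10%, 5.86% and 5.76% in PBS libraries 1, 2 and 3. Injected libraries 1 and 3 lay above all PBS libraries and library 2 below them (6.73 ± 1.00% with rmIl22 and 5.91 ± 0.17% with PBS, exact permutation p = 0.4, smallest possible 0.1).

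**Figure D1:**
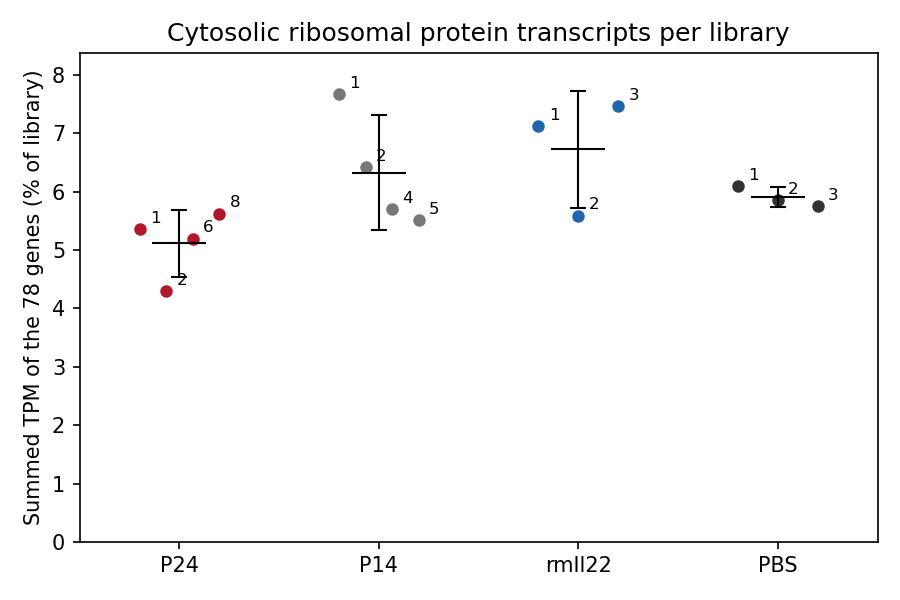
Summed TPM of the 78 ribosomal protein genes as a percentage of each library (y axis) in the 4 groups (x axis). Points are libraries with their numbers, horizontal lines are means and bars are SD; P14 library 1 is the highest and P24 library 2 the lowest.

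Members deviated together within a library. In P24 library 2, 77 of 78 lay below their own mean over the 14 libraries, with a median log2 deviation of -0.47. In P14 library 1, 76 of 78 lay above it (0.36), as did 75 in rmIl22 library 1 (0.28) and 76 in rmIl22 library 3 (0.33). The median of all genes in these 4 libraries deviated by -0.16, 0.04, 0.08 and 0.05. P14 library 4 differed from these, with 54 members below their mean (-0.03) while the median gene was 0.24 above.

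**Figure D2:**
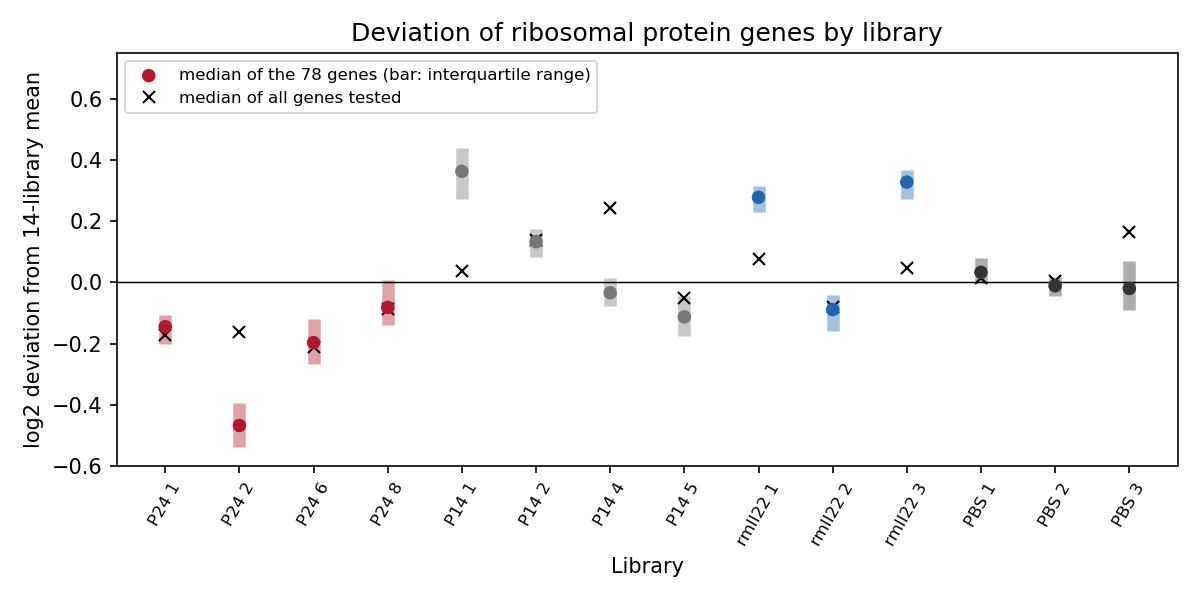
Median log2 deviation of the 78 genes from their 14-library means (points), with the interquartile range of the genes as a bar, for each library; crosses are the median of all genes tested. The members sit well above the crosses in P14 library 1 and rmIl22 libraries 1 and 3, and well below in P24 library 2.

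Between P24 and P14 1 member rose and 34 fell, together 35 of 78 members, where 58.3% of all genes passed in either direction. Rps27l, a paralog of the small-subunit protein Rps27 that in human cells is a target of p53, was the member that rose, under every setting tried. It had 398.6, 385.4, 404.0 and 392.8 TPM at P24, against 279.7, 244.8, 239.1 and 226.9 TPM at P14. All 4 P24 libraries lay above all 4 P14 libraries and within a narrow band. The log2 fold change was 0.68 (SE 0.09, limma adjusted p = 8.55e-05), with means of 395.2 ± 7.99 and 247.6 ± 22.7 TPM (SD, n = 4 each). It is a protein-coding gene (ENSMUSG00000036781.13, GRCm38 chromosome 9, 66946086 to 66949516, plus strand). It passed in all 19 alternatives, with a log2 fold change between 0.64 and 0.99.

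The 34 members that fell made up 43.6%, and the other 43 did not pass, while 43.7% of all 14651 genes tested fell and 14.6% rose. The share of members that fell is near that of genes at large. Their median log2 fold change was -0.31, against -0.25 for all genes, and 28 members were lower with no overlap between groups (39.4% of all genes), 1 higher (13% of all genes). When each library was scaled to its median gene, the member median was -0.01, and 2 members were higher and 2 lower, where 29.5% of all genes were higher and 28.3% lower. Scaling to the members' own mean level gave 2 and 2, where 18.7% of all genes were higher and 17.3% lower. That scaling sets the members' mean to the same level in every library, so any shift they share is removed by construction. The count of 35 fell to 22 without P14 library 1, and to 15 and 23 without P24 libraries 2 and 6. The authors' deposited table, which lists all 78, gave 4 higher (Rps27l, Rps26, Rpl29 and Rps2) and 3 lower (Rps4l, Rpl23 and Rps28) at an adjusted p under 0.05, where 20.2% and 20.1% of its genes were higher and lower. The authors' deposited table gave Rps27l a log2 fold change of 0.99 and Rps4l, Rpl23 and Rps28 -0.56, -0.38 and -0.26.

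**Figure D3:**
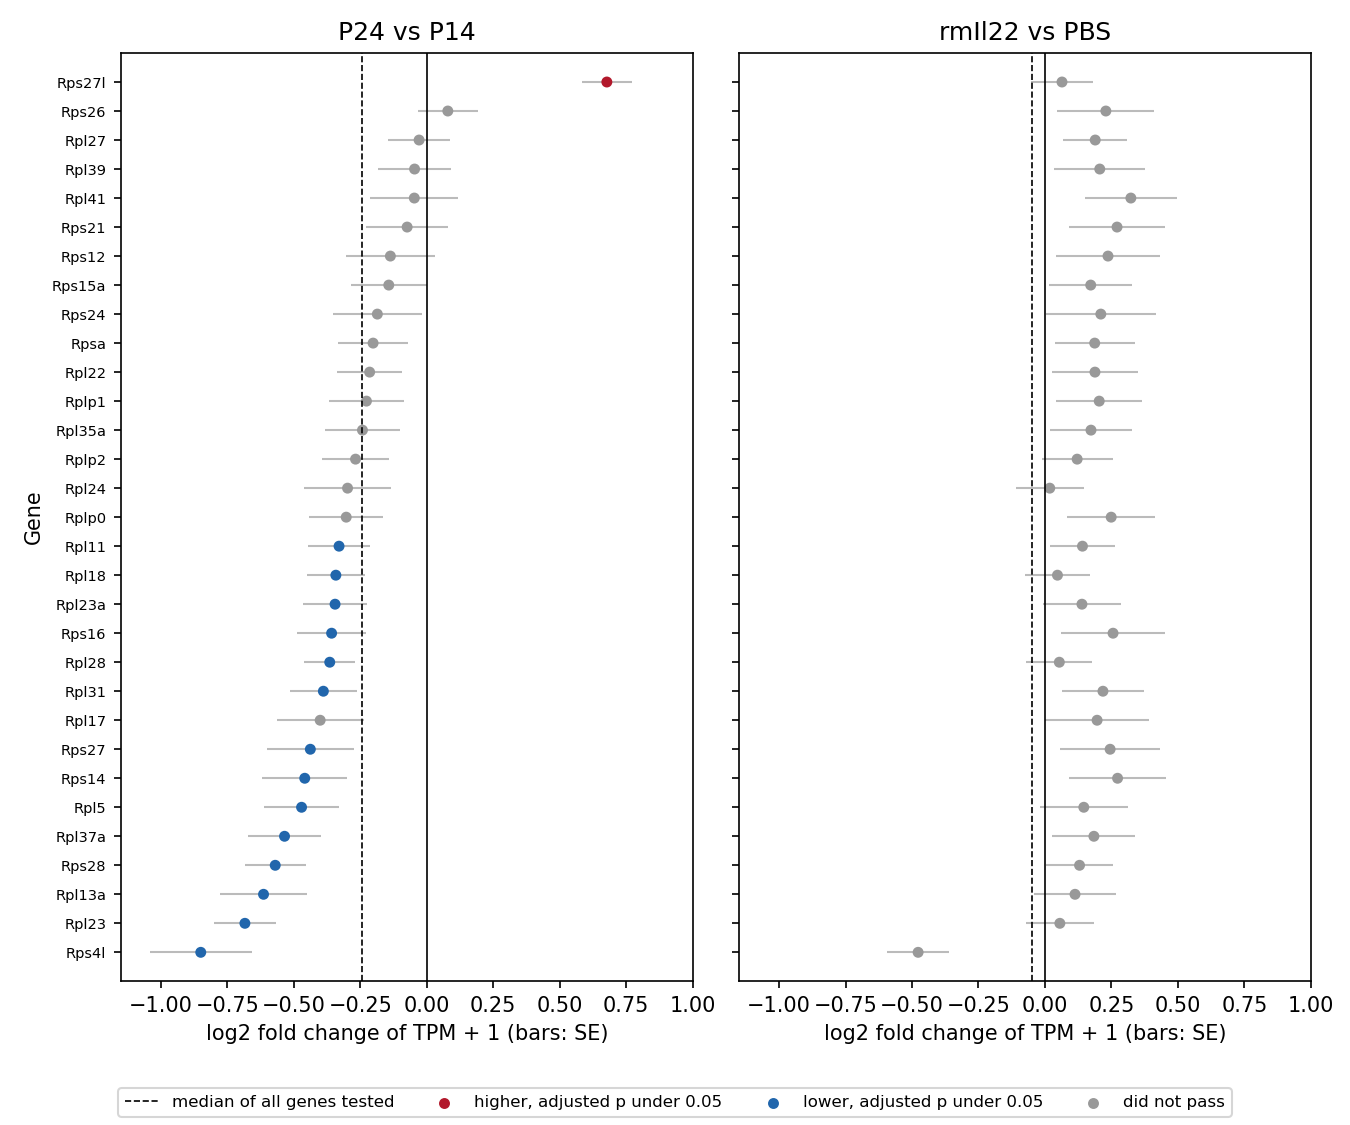
Log2 fold change of TPM + 1 (x axis, points; bars are SE) for 31 of the 78 genes (y axis), those named by a fixed rule, in P24 vs P14 (left) and rmIl22 vs PBS (right). Red and blue points passed an adjusted p under 0.05 upwards and downwards, grey points did not; the dashed line is the median of all genes tested, near -0.25 on the left and -0.05 on the right.

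Rpl23 and Rps4l fell on the deposited scale and in all 19 alternatives. Rpl23, a large-subunit protein at the face that meets the small subunit, had 454.5, 399.4, 444.2 and 483.9 TPM at P24, against 811.5, 779.2, 690.4 and 597.7 TPM at P14. No P24 library reached the lowest P14 library (log2 fold change -0.68, SE 0.12, limma adjusted p = 4.78e-04; -0.38 on median-scaled TPM, limma adjusted p = 0.0264). Rps4l, annotated in GENCODE M21 as a transcribed processed pseudogene (chromosome 6, 148354656 to 148355598, plus strand), had 95.15, 64.98, 67.69 and 69.91 TPM at P24, against 124.1, 195.8, 133.8 and 97.46 TPM at P14. The highest P24 value, in library 1, lay just under the lowest P14 value (log2 fold change -0.85, SE 0.19, limma adjusted p = 0.00264; -0.54 on median-scaled TPM, limma adjusted p = 0.0312).

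Rps26, which lines the channel where messages leave the small subunit, did not pass on the deposited scale. It had 1391, 1175, 1387 and 1472 TPM at P24, against 1356, 1272, 1328 and 1169 TPM at P14, and the groups overlapped (log2 fold change 0.08, SE 0.11, limma adjusted p = 0.561). On median-scaled TPM it passed as higher (0.39, limma adjusted p = 0.0213), and the authors' deposited table gave 0.4. As a share of summed member TPM it made up 2.66 ± 0.06% at P24 and 2.05 ± 0.24% at P14 (SD, n = 4 each).

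**Figure D4:**
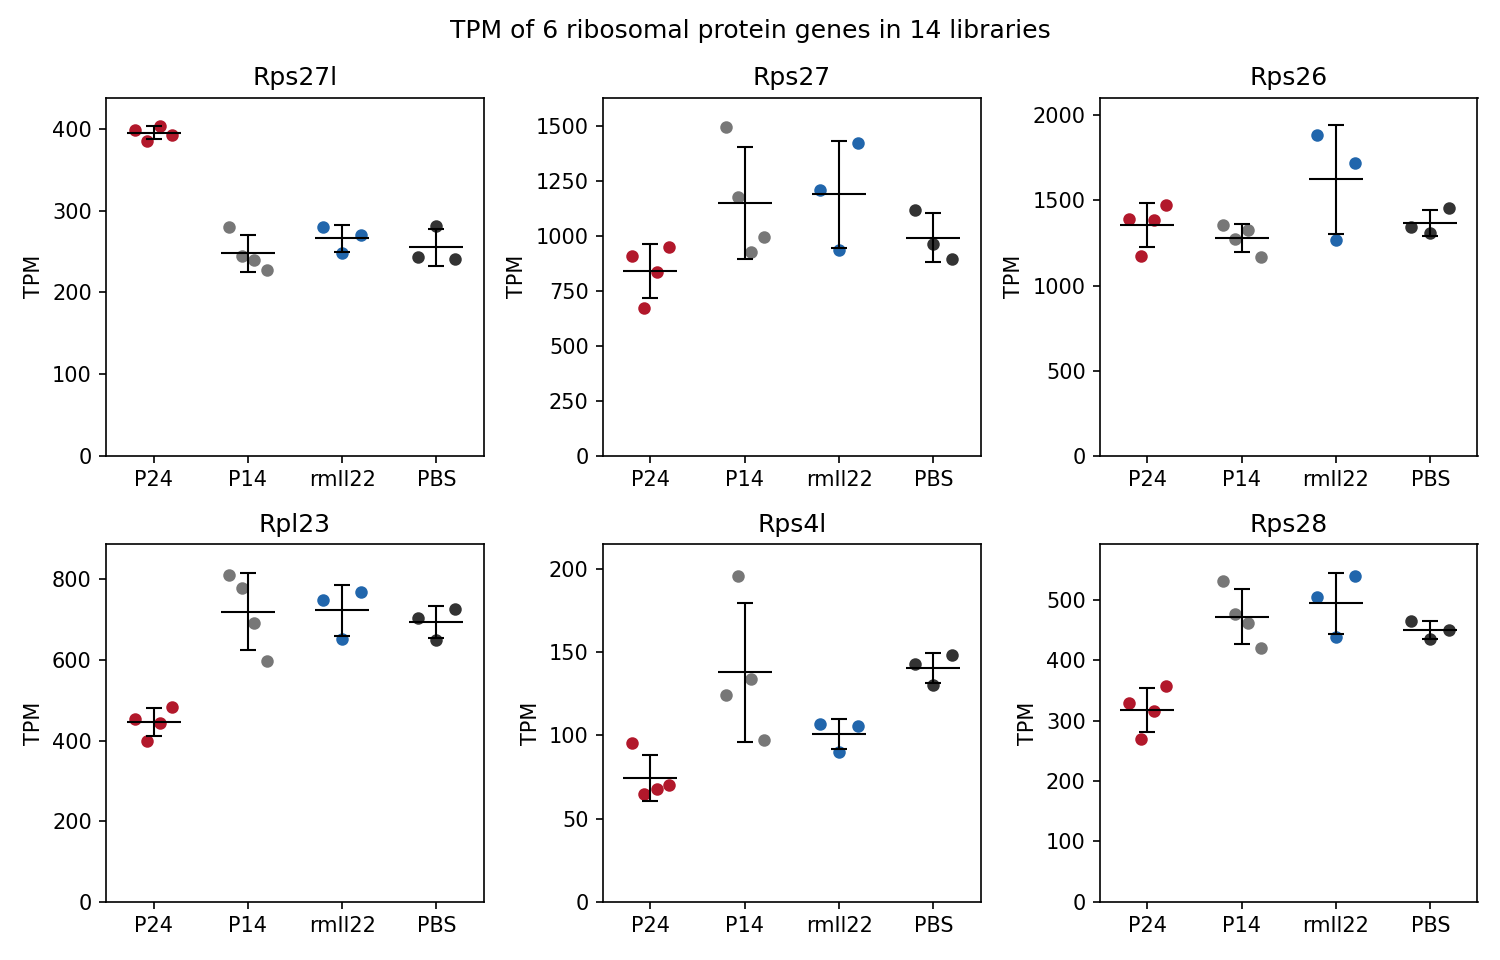
TPM (y axis) of Rps27l, Rps27, Rps26, Rpl23, Rps4l and Rps28 in each library of the 4 groups (x axis); horizontal lines are means and bars are SD. The P24 points stand above all others only for Rps27l, and below all P14 points for Rpl23, Rps4l and Rps28.

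By place in the ribosome, the small subunit had 16 of 32 members lower and 1 higher, and the large subunit 18 of 46 lower and 0 higher. The 16 include Rps4l, which is counted by its name but annotated as a transcribed processed pseudogene. As shares, 50.0% of the small-subunit and 39.1% of the large-subunit members fell, to either side of the 43.7% of all genes. On median-scaled TPM these became 1 lower and 2 higher, and 1 lower and 0 higher. In the head of the small subunit 8 of 14 fell, led by Rps28, which stands beside the message exit. Rps28 had 329.3, 270.1, 315.8 and 357.4 TPM at P24, against 530.3, 476.9, 460.8 and 420.2 TPM at P14, with no overlap (log2 fold change -0.57, SE 0.11, limma adjusted p = 0.00125). None of the 14 passed on median-scaled TPM. Around the tunnel through which the new chain leaves, 4 of 8 fell, from Rpl31 at -0.39 to Rpl23a at -0.35 (log2 fold change). Rpl5 and Rpl11, which carry the 5S RNA into the large subunit and in human cells bind the p53 regulator MDM2 when free, both fell (log2 fold change -0.47 and -0.33), and neither passed on median-scaled TPM.

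None of the 4 proteins of the stalk that recruits elongation factors passed. Rplp0, the stalk base, averaged 1515 ± 184 TPM at P24 and 1874 ± 287 TPM at P14 (log2 fold change -0.30, limma adjusted p = 0.0827). Rplp1 had -0.23 and Rplp2 -0.27, so the stalk proteins lay close to each other and to the median of all genes. Rpsa, a small-subunit protein also known as a laminin receptor, had -0.20 (limma adjusted p = 0.21). Among other large-subunit members, Rpl13a, which in human cells also acts in the interferon-responsive GAIT complex, averaged 1364 ± 190 TPM at P24 and 2107 ± 464 TPM at P14 (log2 fold change -0.61, limma adjusted p = 0.00758). Rpl37a also fell (-0.54), and the calls of Rpl13a and Rpl37a, like that of Rps28, were lost on median-scaled TPM and on member-scaled TPM. At the other end Rpl41 (-0.05), Rpl39 (-0.05) and Rpl27 (-0.03) did not pass. Their log2 fold changes on median-scaled TPM were 0.26, 0.26 and 0.28, and these did not pass either.

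Of the abundant members, Rpl17, beside the exit tunnel, did not pass, with 1559 ± 231 TPM at P24 and 2073 ± 440 TPM at P14 (-0.40, 95% interval -0.76 to -0.04, limma adjusted p = 0.0542). Rps12 had 3892, 3172, 4034 and 4124 TPM at P24, against 5395, 4399, 3575 and 3538 TPM at P14. P14 libraries 1 and 2 lay above every P24 library and P14 libraries 4 and 5 among them, so the difference was within the spread (log2 fold change -0.14, 95% interval -0.50 to 0.23). Rps24, another small-subunit protein, had -0.19 (95% interval -0.55 to 0.18).

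None of the 5 least abundant members but Rps4l passed. Rps15a, Rpl22 and Rpl35a had log2 fold changes of -0.14, -0.22 and -0.24, with 95% intervals that reached from -0.46, -0.48 and -0.55 up to 0.17, 0.05 and 0.07. Rpl24, at the limit of its depth, had -0.30 (95% interval -0.66 to 0.06). Rps6, whose protein is the classic phosphorylation target of the mTORC1-driven S6 kinases and whose start carries a clear run, had 375.2, 293.7, 359.6 and 380.4 TPM at P24, against 543.8, 421.9, 411.8 and 374.4 TPM at P14. P14 library 5 lay inside the P24 range, and the log2 fold change of -0.31 did not pass (95% interval -0.60 to -0.02, limma adjusted p = 0.0647). Of the other members with a printed run, Rps10 fell (-0.43, limma adjusted p = 0.0213) and Rpl15 did not pass (-0.16, 95% interval -0.43 to 0.11). The Rps10 call was lost on median-scaled TPM (-0.12, limma adjusted p = 0.584).

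Summed small-subunit TPM divided by summed large-subunit TPM was 0.897 to 0.905 in the P24 libraries and 0.855 to 0.878 in the P14 libraries, which did not overlap. It was 0.875 to 0.912 with rmIl22 and 0.845 to 0.910 with PBS, which did. These sums are weighted by the abundant members. Between P24 and P14 the median log2 fold change was -0.33 over small-subunit and -0.29 over large-subunit members. The ratio therefore does not show a shift of a subunit's members as a set. Rps12 alone held 7.44 ± 0.22% of summed member TPM at P24 and 6.65 ± 0.36% at P14 (SD, n = 4 each), again with no overlap. These ratios within a library do not depend on its scaling and were chosen after values had been seen, so no test is given.

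Ratios of paralogs, also chosen after values had been seen, compare 2 related genes within a library. Rps27l stood at 0.414 to 0.575 of the TPM of Rps27 in the P24 libraries, against 0.187 to 0.258 in the P14 libraries. Every P24 library lay above every P14 library. Rps27 itself fell, with overlap (840.4 ± 123 TPM for P24 and 1149 ± 254 TPM for P14, log2 fold change -0.44, limma adjusted p = 0.0384). Rpl36al, an autosomal copy of the X-linked Rpl36a, stood at 0.640 to 0.729 of its partner at P24 and at 0.364 to 0.440 at P14. Rpl36al rose (129.4 ± 9.99 TPM at P24 and 106.6 ± 8.92 TPM at P14, log2 fold change 0.28, limma adjusted p = 0.0278) and Rpl36a fell (188.9 ± 18.5 and 265.2 ± 43.5 TPM, log2 fold change -0.48, limma adjusted p = 0.00711). On median-scaled TPM neither Rps27 (-0.13, limma adjusted p = 0.604) nor Rpl36a (-0.17, limma adjusted p = 0.308) passed.

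Rpl22l1 over Rpl22 was 0.633 to 0.698 at P24 and 0.559 to 0.608 at P14, a smaller gap with no overlap. Rps4l over Rps4x overlapped (0.0827 to 0.122 at P24 and 0.113 to 0.20 at P14), as did Rpl7l1 over Rpl7 (0.0933 to 0.104 and 0.0886 to 0.122). With rmIl22 and PBS, Rps4l over Rps4x was the one ratio of the 5 whose groups did not overlap, at 0.0893 to 0.109 with rmIl22 and 0.141 to 0.158 with PBS. The Rpl36al call was lost when any of 5 single libraries was left out (P14 library 4 or 5, or P24 library 1, 6 or 8, limma adjusted p up to 0.0853).

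**Figure D5:**
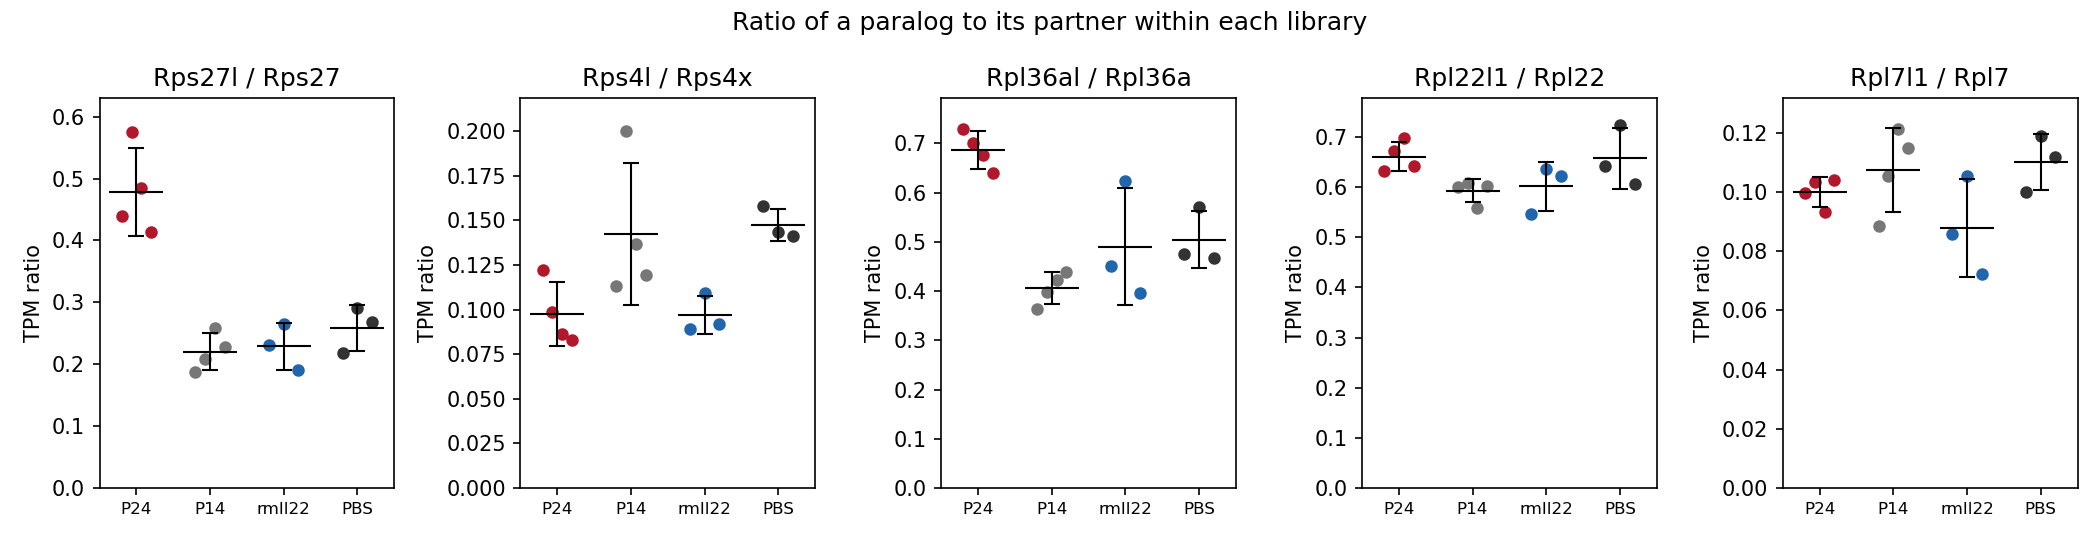
TPM of a paralog divided by the TPM of its partner (y axis) in each library of the 4 groups (x axis) for 5 pairs; lines are means and bars are SD. The P24 points stand clear of the P14 points for Rps27l over Rps27, Rpl36al over Rpl36a and Rpl22l1 over Rpl22.

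Other features of the libraries moved with age. The lectin gene Reg3b reached 54469 to 79178 TPM at P24, against 459.9 to 1008.2 TPM at P14. TPM sums to a fixed total. With all genes of 10000 TPM or more left out of the sum, 28 members fell and 1 rose, and the member median was -0.29. The shares of all genes under that sum were not counted. Of 10 fibroblast markers 0 rose and 8 fell (summed 548 to 737.3 TPM at P24 and 882.9 to 1677 TPM at P14), and of 9 neuron and glia markers 0 rose and 8 fell (17.7 to 27.7 and 56.7 to 82.2 TPM). Of 10 Paneth cell markers 9 rose and 1 fell (27740 to 29030 and 5678 to 8421 TPM), of 8 ileal epithelial markers 4 rose (22720 to 30360 and 5262 to 7116 TPM), and of 11 B and plasma cell markers 3 rose (266.5 to 878.8 and 205.8 to 339.6 TPM). The epithelial sum is weighted by abundant markers, and the median log2 fold change of the 8 was 0.64. Epcam, the general epithelial marker, averaged 2415 TPM at P24 and 2286 TPM in P14 libraries, and Slc10a2, the ileal bile acid transporter, 805.5 and 9.87 TPM. The glial factor Sox10 averaged 0.82 TPM at P24 and 1.95 TPM at P14. Of 5 red blood cell markers 4 rose, and they summed to 800.6 TPM in P24 library 2, against 217.6 to 271.6 TPM in the other P24 libraries and 132.2 to 219.1 TPM at P14. P24 library 2 is also the library with the lowest member share, without which 15 members passed in place of 35. On median-scaled TPM 7 of the 8 epithelial, 9 Paneth, 4 B and plasma cell and 5 red blood cell markers were higher and none of these lower. On that scale 8 fibroblast and 7 neuron and glia markers were lower. Of all genes 29.5% were higher and 28.3% lower on median-scaled TPM, against 14.6% and 43.7% on the deposited scale. On member-scaled TPM 1 fibroblast marker was lower, where 17.3% of all genes were. The part of these cell types in the member differences was not tested.

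Xist is transcribed from the inactive X chromosome. It stood above 1 TPM in P24 libraries 2, 6 and 8, P14 libraries 4 and 5 and rmIl22 libraries 2 and 3. It stood below 1 TPM in the other 7, and the labels give no sex. The Y-linked gene Ddx3y had 16.84 to 31.61 TPM in those 7 and 0.02 to 0.09 TPM in the libraries with Xist above 1 TPM. By these transcripts the groups of both comparisons differed in sex make-up. Within the libraries with Xist above 1 TPM, the members took 4.30% to 5.62% at P24 and 5.51% to 5.70% at P14, which overlapped. Below it, P24 library 1 had 5.36%, against 7.68% and 6.41% in P14 libraries 1 and 2, and rmIl22 library 1 had 7.12%, against 5.76% to 6.10% with PBS. No PBS library was above it. With Xist above or below 1 TPM as a covariate, 28 members fell and 1 rose at P24 (median -0.25), and 0 passed with rmIl22 (median 0.27). Since no PBS library stood above 1 TPM, the covariate in rmIl22 vs PBS rests on the rmIl22 libraries alone. The shares of all genes in these fits were not counted.

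Other genes of the translation machinery were examined by list. Counts on the deposited scale stand beside the 14.6% of all genes that rose and the 43.7% that fell, with a median log2 fold change of -0.25. Counts on median-scaled TPM stand beside 29.5% of all genes higher and 28.3% lower, with a median of 0.02. Of 18 translation factor and related genes with TOP messages, 0 rose and 11 fell (median log2 fold change -0.35), led by Eif4b, a helicase cofactor that fell to 143.8 ± 7.35 TPM at P24, against 244.1 ± 31.3 TPM at P14 (log2 fold change -0.75, limma adjusted p = 1.22e-04). Of 35 ribosome biogenesis genes 1 rose and 11 fell (median -0.19), a smaller share than of all genes. The one that rose was Eif6, which sits on the Rpl23 face of a new large subunit and keeps it from joining: 160.3 ± 14.4 TPM at P24 and 90.1 ± 6.53 TPM at P14 (log2 fold change 0.82, limma adjusted p = 2.51e-05). Pes1, a large-subunit assembly factor, fell most in that list (log2 fold change -0.74, limma adjusted p = 6e-05). On median-scaled TPM 11 biogenesis genes were higher and 3 lower, and for the TOP translation genes 0 and 2.

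RNA polymerase I and its cofactors, which transcribe ribosomal RNA, had 1 of 13 higher (Taf1d, log2 fold change 0.66) and 9 lower, with Cd3eap, a polymerase subunit, at -0.75 (limma adjusted p = 8.04e-04). Median-scaled TPM gave 2 higher and 4 lower. Among 12 transcription regulators of ribosome synthesis 1 rose and 4 fell. Mxd1, which opposes MYC at its target sites, rose to 202.0 ± 32.1 TPM at P24, against 56.5 ± 8.35 TPM at P14 (log2 fold change 1.82, limma adjusted p = 6.74e-07). Mycn, a MYC family activator, fell to 1.28 ± 0.13 TPM, against 7.76 ± 1.15 TPM (log2 fold change -1.93, limma adjusted p = 1.35e-07). On median-scaled TPM 6 of these 12 were higher and 2 lower.

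In the mTORC1 and TOP control list 2 of 22 rose and 12 fell, and on median-scaled TPM 5 were higher and 6 lower. Sesn2, a leucine sensor that restrains mTORC1, fell to 6.57 ± 0.43 TPM at P24, against 25.5 ± 4.12 TPM at P14 (log2 fold change -1.80, limma adjusted p = 2.35e-07). Its paralog Sesn1 rose (log2 fold change 0.54, limma adjusted p = 4.98e-04). Of 7 TOP-type snoRNA host genes 0 rose and 1 fell (Snhg12, log2 fold change -1.19, limma adjusted p = 2.57e-04), and on median-scaled TPM 4 were higher and 1 lower. Of 20 proliferation genes 10 rose and 2 fell, from the survivin gene Birc5 (0.83) to the replication helicase gene Mcm6 (-0.70), and on median-scaled TPM 17 were higher and 2 lower. The 76 mitochondrial ribosomal protein genes, which serve the other ribosome of the cell, had 4 higher and 25 lower (median log2 fold change -0.11). These went from Mrps28 at 0.42 to Mrpl23, whose log2 fold change was -1.07 (17.0 ± 1.67 TPM for P24 and 36.9 ± 3.55 TPM for P14, limma adjusted p = 5.70e-06). On median-scaled TPM 31 of the 76 were higher and 3 lower, where the cytosolic members gave 2 and 2.

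In the comparison of rmIl22 with PBS no member passed: 0 of 78 in limma and 0 with voom on the recovered reads, with 1 at an unadjusted p under 0.05. Of all 14456 genes tested, 2.69% passed, 0.443% higher and 2.25% lower, and 15.5% had an unadjusted p under 0.05. All members but Rps4l had a fitted fold change above 0, with a median of 0.17 on the log2 scale (all genes: -0.05). On median-scaled TPM the member median was 0.24 (all genes: 0.01). The members were measured in the same 6 libraries, so their signs are not independent of each other.

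Rps4l was the member with an unadjusted p under 0.05. It had 106.6, 90.2 and 105.6 TPM with rmIl22, against 142.6, 130.5 and 148.4 TPM with PBS. All 3 treated libraries lay below all PBS libraries, which 1 member did (15.4% of all genes), but the log2 fold change of -0.48 (SE 0.12, 95% interval -0.75 to -0.20) did not pass (limma adjusted p = 0.087). At the upper end was Rpl41, the smallest ribosomal protein, with 1067, 833.0 and 1125 TPM with rmIl22, against 814.6, 905.2 and 691.9 TPM with PBS. Treated library 2 lay inside the PBS range, and the log2 fold change of 0.32 had a 95% interval of -0.08 to 0.73 (limma adjusted p = 0.461). Rps27l averaged 266.1 ± 16.3 TPM with rmIl22 and 254.8 ± 22.5 TPM with PBS (SD, n = 3 each; log2 fold change 0.06, 95% interval -0.21 to 0.34). Rps14 of the small-subunit platform had 1103, 820.5 and 1264 TPM with rmIl22, against 905.9, 861.0 and 830.0 TPM with PBS, so that treated library 2 lay below all PBS libraries and the other treated libraries above them (log2 fold change 0.27, 95% interval -0.15 to 0.70). Rps21, Rps16, Rplp0 and Rps12 lay close to it, at 0.27, 0.26, 0.25 and 0.24, and none passed. The members nearest to 0 were Rpl24, Rpl18, Rpl28 and Rpl23 (0.02, 0.05, 0.05 and 0.06), and Rpl23 had a 95% interval of -0.25 to 0.36.

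Treated library 2 stood apart from the other treated libraries. It had 50775 TPM of Reg3b, against 16052 and 14488 TPM in treated libraries 1 and 3 and 226 to 3652 TPM with PBS. Its markers were also lower than in treated libraries 1 and 3 for smooth muscle (1205 TPM summed, against 3951 and 2071 TPM), fibroblasts (573.8 TPM, against 1316 and 1242 TPM) and ileal epithelium (8005 TPM, against 17550 and 14410 TPM). With PBS these sums were 2036 to 2557, 899.6 to 1227 and 6727 to 8954 TPM. None of the markers passed between rmIl22 and PBS, and their part in the member values was not tested. Without treated library 2 the member median was 0.30, and 1 member passed as higher, Rps20 of the small-subunit head (log2 fold change 0.43, limma adjusted p = 0.0478), named after its values were seen. With all genes of 10000 TPM or more left out of the sum, the median was 0.28 with all libraries in and 0 members passed. The authors' deposited table for this comparison holds 1102 genes, and no member is among them.

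None of the genes in the other ribosome lists passed either. The TOP translation genes had a median log2 fold change of 0.07, ribosome biogenesis genes -0.01 and mitochondrial ribosomal protein genes -0.11. Summed mitochondrial ribosomal protein TPM was 2717 to 3068 with rmIl22 and 2914 to 3249 with PBS.

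The age effect and the rmIl22 effect were compared directly in a fit of all 14 libraries. Rps27l had a higher log2 fold change with age than with rmIl22, by 0.61 (SE 0.13, limma adjusted p = 0.00543). For 15 members it was lower with age, led by Rpl23 (-0.74, SE 0.17, limma adjusted p = 0.00691). These differences keep their sign, so a lower value is not a weaker response: Rpl23 had -0.68 with age and 0.06 with rmIl22. Of all 15702 genes, 6.51% had a higher and 17.3% a lower log2 fold change with age. Rps14, Rpl13a and Rpl37a were next (-0.73, -0.73 and -0.72), and Rps26 and Rpl27 lay at the other end below Rps27l, with -0.15 and -0.22 and adjusted p of 0.6 and 0.354 in limma. On median-scaled TPM Rps27l (0.86, limma adjusted p = 0.00302) and Rpl23 (-0.49, limma adjusted p = 0.0378) passed and no other member did. There 14.1% of all genes had a higher and 13% a lower log2 fold change with age. The number of members with a different effect depended on single libraries: the 16 became 55 without rmIl22 library 2 and 26 without P14 library 5, and between 4 and 10 without any 1 of the other libraries except P14 library 4 (11) and P24 library 8 (15).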

How the data were processed

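RNA sequencing of whole ileum gave 14 libraries in 4 groups, taken from the sample titles. The authors' deposited table holds TPM, and their 2 deposited comparison tables hold other values, namely log2 fold changes with adjusted p-values, written with decimal commas. Libraries were depleted of ribosomal RNA and strand-specific, per the labels' protocols. Per the submitters' processing notes, the tools were STAR 2.4.0f, HTSeq 0.6.1p1, FastQC 0.11.2 and DESeq2 1.14 on mm10; which settings were used is not stated in the sources at hand. Columns of the P24 and P14 libraries carry numbers that are not those of the labels, so each was assigned to its group only.

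The members and all gene lists were chosen with earlier results of these data known. Tests used limma 3.58.1 (R 4.3.3, with trend) on log2(TPM + 1), which understates changes of low genes. A gene was tested if 4 or more libraries (for P24 vs P14), or 3 or more (for rmIl22 vs PBS and the difference), reached 1 TPM. Two-sided p-values were adjusted by the Benjamini-Hochberg method across every tested gene and called under 0.05. Named members are the 6 highest and 6 lowest fold changes of each comparison, the 5 highest and 5 lowest levels, the 3 largest and 3 smallest differences between comparisons, the stalk proteins, Rpsa and paralogs of restricted tissues, and of each list the highest and lowest gene that passed. For all 31189 genes above 0 the TPM gave back whole read numbers, to within 0.001. Reads of same-group libraries differed beyond sampling noise (chi-square per degree of freedom 30.9 to 255.0). In simulated data the test recovered 67% of 1.5-fold and 99.7% of 2-fold changes in P24 vs P14 (14314 to 14342 genes tested). In rmIl22 vs PBS it recovered 43% and 98.7% (14326 to 14379 genes). The simulated counts had the same spread for every gene (dispersion 0.015) and no shift shared by the genes of a library. Members of the real libraries deviated together, so these rates do not give the power for the members. Alternatives were other pseudocounts, filters and scalings, voom, a replicate block, 1 fit of all libraries and leaving out each library; scaling to the members and the Xist covariate were added after seeing the data. Some genes that the rule names are not reported here. Left out were 27 rows whose symbols had become dates. Intervals of fold changes cover the spread between libraries.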

Additional observations from a re-analysis of the deposited data

Results flagged for a closer look

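In groups of 4 libraries, 62 member values by group were examined for a library whose gap to the nearest other exceeds Dixon's 95% critical share of the range, and 3 were found, where chance gives about 1 in 20. Rpl24 had 1.74 TPM in P24 library 2, against 2.99 to 3.21 TPM in the other P24 libraries. Rps21 had 459.2 TPM in the same library, against 576.4 to 592.6 TPM in the others. That library held the lowest summed member TPM of all 14. Rps4l had 95.2 TPM in P24 library 1, against 65.0 to 69.9 TPM in the other P24 libraries. Neither Rpl24 nor Rps21 passed the test between P24 and P14.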

How the results depend on the processing

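The number of members called between P24 and P14 (35) was 18 with no filter and 16 with voom on recovered reads. It was 4 on median-scaled TPM and on TPM scaled to the members. The median log2 fold change (-0.31) was -0.008 and -0.012 in these 2 scalings. Scaling to the members removes any shift that they share, so its values here and below follow in part from the scaling itself. Without single libraries the count ranged from 15 to 49 (22 without P14 library 1, 15 and 23 without P24 libraries 2 and 6), and the median from -0.38 to -0.22. In rmIl22 vs PBS the 0 calls became 1 without rmIl22 library 2 (range 0 to 1; median 0.085 to 0.30). The 16 members with a different effect were 4 with no filter, 2 on median-scaled TPM, 57 with quantile normalisation, 46 without genes of 10000 TPM or more, 1 scaled to the members, 35 with the Xist covariate, and 4 to 55 without single libraries, over 1.5 times away for every library left out but P14 library 4 and P24 library 8. The median-scaled split over all genes was 4323 higher and 4139 lower, against 2146 and 6400. Of 14 named members called with age, 3 (Rps27l, Rpl23 and Rps4l) kept the call in all 19 alternatives, as did 27 of 37 named list genes. No called gene changed sign. Among named members that did not pass, 14 changed sign with age in at least 1 setting, 13 of them on median-scaled TPM, and 8 with rmIl22. The causes of these changes were not tested. Shares of all genes were counted only on deposited, median-scaled and member-scaled TPM and with the replicate block. Member counts under the other settings therefore cannot be set against genes at large. With the replicate block in rmIl22 vs PBS, 0 members and 280 of all genes passed (389 without it). The same-number correlations were -0.07, 0.33 and -0.05, and the different-number ones ran from -0.338 to 0.405. With 3 libraries per group these values cannot show whether the numbers pair the samples. P14 and P24 columns carry no label number, so they were not paired. Depth limits only Rpl24.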
